A study of Rattus norvegicus with 11 samples.

Results

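The cyclin E genes of the rat, Ccne1 and Ccne2, were followed across all 11 arrays of an experiment on the transcription factor E2F1. Their probe sets were taken by gene symbol, and the genes were picked with earlier results of these data known. They are 2 of 10411 genes with a probe set of their own in the platform annotation, and each has 1 of the 15866 probe sets that are not controls (Entrez gene 25729 for Ccne1 and 362485 for Ccne2). In the RefSeq gene table (assembly GRCr8) Ccne1 spans 9315 bases of chromosome 1, from 99918672 to 99927986. Ccne2 spans 12711 bases of chromosome 5, from 29082169 to 29094879.

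The RNA came from REF52 cells, an established line of rat embryo fibroblasts. Every culture was grown in 10% serum, held in 0.25% serum for 48 h and then infected with an adenovirus. The infected cultures received deprivation medium, serum with LY294002 (an inhibitor of phosphoinositide 3-kinase), or serum alone. E2F1 virus cells were measured in deprivation medium, with LY294002 and in serum on 2 arrays each. Control virus (CMV) cells were measured on 1 array in deprivation medium, and on 2 arrays each with LY294002 and in serum. Both arms were thus infected and had passed through deprivation, and E2F1 came from a virus, not from the cells' own gene. The level of the introduced E2f1 is not analysed here. Whether the arrays of a pair stand for separate cultures is not stated in the labels, and p-values therefore measure only array spread, which may be technical. The few arrays limit the precision.

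Cyclin E is the regulatory subunit that activates the kinase Cdk2 late in G1. Cyclin E-Cdk2 phosphorylates the retinoblastoma protein, which releases more E2F, and it helps to load and fire replication origins. Ccne1 and Ccne2 encode closely related forms with largely overlapping roles in mice. Both genes are textbook E2F targets, and the protein is removed by ubiquitin ligases built on Fbxw7 or Cul3. Fibroblasts that leave the cycle in low serum keep cyclin E low until they are stimulated.

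Sequence around the start of Ccne1 is shown because E2F proteins bind DNA next to their target genes. The RefSeq promoter table (GRCr8, minus strand) sets the start at position 99927909, inside the gene span given above, whose outer end is 99927986. The 250 bases before the promoter table's start (chr1:99927910-99928159) thus include 77 bases of that span. They read, 5′ to 3′, with matches to TCCCGC on either strand in capitals:
Ccne1: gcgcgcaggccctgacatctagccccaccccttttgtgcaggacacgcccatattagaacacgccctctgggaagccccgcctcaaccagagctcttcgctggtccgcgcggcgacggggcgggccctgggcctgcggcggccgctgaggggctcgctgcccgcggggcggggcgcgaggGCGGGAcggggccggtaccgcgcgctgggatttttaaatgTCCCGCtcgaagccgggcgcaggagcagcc
The letters of the full E2F consensus, TTT followed by a pair of bases that are each C or G and then CGC, were searched on both strands and have 0 matches in this window. They occur in 1.73% of the 33469 promoter windows of the same length in the table. The shorter core TCCCGC, chosen after the sequence was seen, occurs 2 times, at 30 to 25 bases before the promoter table's start on the gene's strand and at 70 to 65 bases before it on the other strand. Both matches lie inside the gene span, not before its outer end. The core occurs in 15.96% of all windows. The window holds 72.8% G and C, against a median of 51.2% over all windows. A match of letters is a description of the sequence only.

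Values are array signals on a linear scale, as deposited, with the mean after trimming 2% at each end equal to 500 on every array. Changes are differences of log2(signal + 16), fitted with limma over all 15866 probe sets and all 11 arrays, with Benjamini-Hochberg adjusted p and a threshold of 0.05. Array medians lay between a signal of 173 and 208. The fibroblast label was checked against 12 markers, of which 8 exceeded the highest array median on every array, among them Col1a1, Vim and Fn1. Thy1 and Lum, also on that list, stayed below the lowest array median on every array. Pdgfra (signals of 13.7 to 202) and Dcn (9.57 to 183) were dim too and never exceeded the highest array median. Of 14 measured markers of other cell types 10 stayed below the lowest array median on every array. The summed signal of these 14 was 750 to 2753 on E2F1 arrays and 906 to 3056 on control virus arrays. Among them Myod1, a muscle regulator, had signals of 55.8 to 160 on the 3 deprived arrays and 1342 to 2342 on the 8 arrays with serum or LY294002, and its part in the differences between media was not tested. RNA quality was read from how far the 3′ probe sets of GAPDH and beta-actin exceed their 5′ probe sets (log2). This excess was 0.51 to 0.76 in deprivation (3 arrays), 0.90 on the second LY294002 array of E2F1 cells, and 0.12 to 0.33 on the 7 remaining arrays.

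Ccne1 was high on every E2F1 array. In deprivation medium its signal was 2954 and 2611 on the E2F1 arrays and 321 on the control virus array. With LY294002 it was 2291 and 3236 on the E2F1 arrays and 242 and 141 on the control virus arrays. In serum it was 2086 and 1550 on the E2F1 arrays and 280 and 332 on the control virus arrays. The virus groups did not overlap in any medium, and the lowest E2F1 signal was 4.66 times the highest control virus signal.

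Ccne2 was strong on every E2F1 array and very dim on every control virus array. In deprivation medium its signal was 2312 and 1981 on the E2F1 arrays and 39.2 on the control virus array. With LY294002 it was 1902 and 2044 on the E2F1 arrays and 5.11 and 24.8 on the control virus arrays. In serum it was 1372 and 1443 on the E2F1 arrays and 2.58 and 95.02 on the control virus arrays. Again no E2F1 array overlapped with a control virus array. No detection calls were used, so whether Ccne2 was expressed at all with the control virus is not known. For both genes every E2F1 array lay above every control virus array, which 6.05% of all probe sets did.

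**Figure D1:**
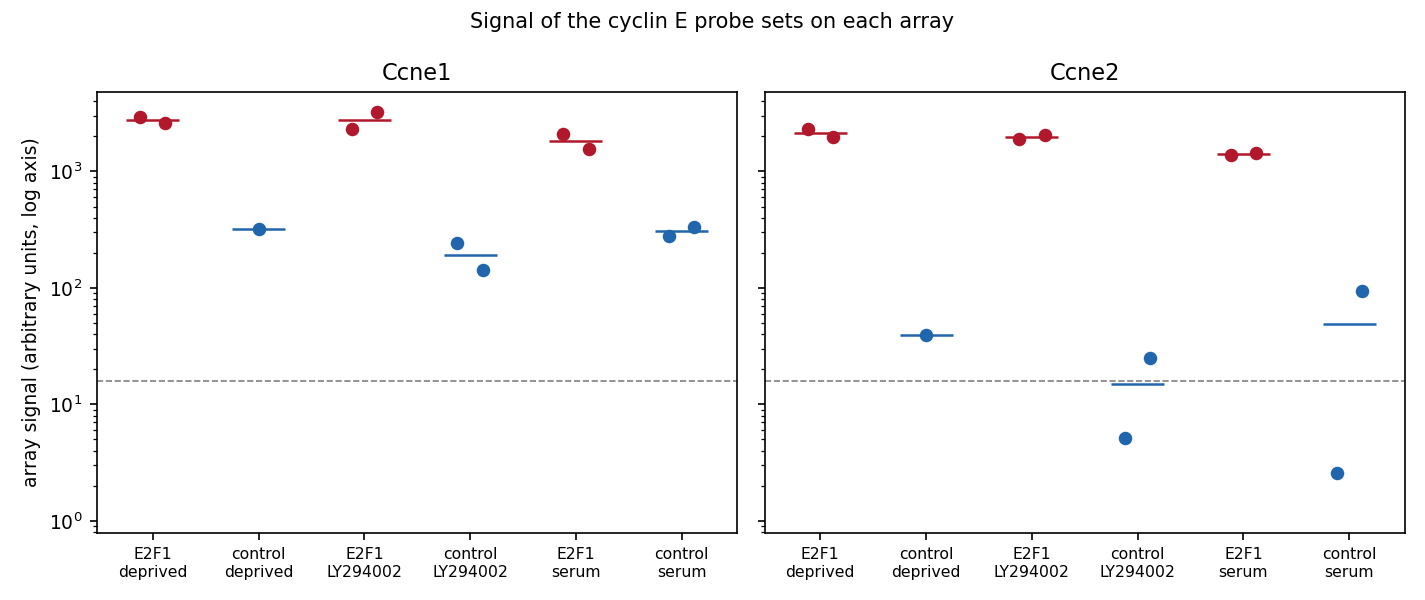
Signal of the Ccne1 and Ccne2 probe sets on each of the 11 arrays (log axis, arbitrary units), by virus and medium. Points are arrays, E2F1 in red and control virus in blue, short lines are group means and the dashed line is the offset of 16. The 6 E2F1 arrays sit between 1550 and 3236 for Ccne1 and between 1372 and 2312 for Ccne2, above all control virus arrays. The heights of the 2 probe sets cannot be set against each other.

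Averaged over the 3 media, both genes rose with E2F1. Ccne1 changed by 3.11 ± 0.18 (log2, SE, 95% interval 2.68 to 3.53, limma adjusted p = 0.000298), or 8.61-fold. Ccne2 changed by 5.45 ± 0.44 (95% interval 4.42 to 6.47, adjusted p = 0.000763). In this average 16.5% of all probe sets passed, and 9.23% passed as higher. By size of change Ccne2 ranked 1 and Ccne1 ranked 23 of 15866. By p-value Ccne1 ranked 8 and Ccne2 ranked 42, since Ccne2 has the larger error.

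The offset sets much of the size for Ccne2, whose control signals lie near it, so no fold is given for this gene. Its average change was 6.43 ± 0.86 with an offset of 1 (rank 1) and 4.32 ± 0.22 with an offset of 64 (rank 1). Ccne1 moved less, with 3.18 ± 0.20 (rank 39) and 2.90 ± 0.16 (rank 8). Ccne1 and Ccne2 each stayed past the threshold in this average without any one of the 10 arrays that can be left out. An exact permutation test of virus labels within media (two-sided, 108 arrangements) gave p = 0.00926 for each gene, also after adjustment over the 2 tests. That is the smallest p the design allows. It restates the lack of overlap between the viruses, which 6.05% of all probe sets share, and is no separate support. The share of all probe sets that reach this p was not computed. All 6 E2F1 arrays lay above their controls. In RNA of whole cultures, more cells in the phase that expresses a gene and more transcript per cell cannot be told apart.

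**Figure D2:**
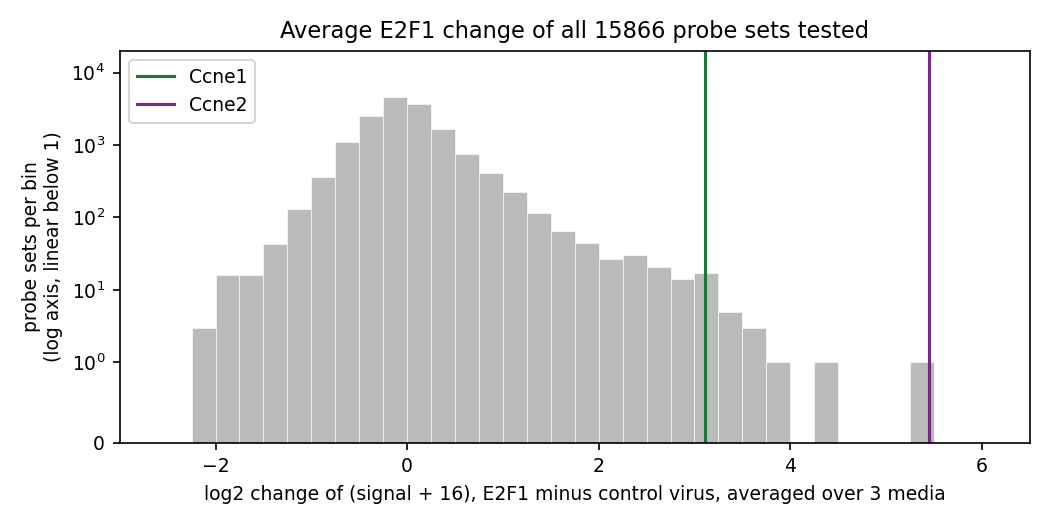
Number of probe sets (log axis, linear below 1) by average change with E2F1 on the log2(signal + 16) scale, with Ccne1 at 3.11 and Ccne2 at 5.45 marked. Ccne2 stands at the far right end of the 15866 probe sets and Ccne1 has rank 23.

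The spread between arrays of a group differed between the genes. For Ccne2 the SD of log2(signal + 16) within pairs was 0.05 to 0.16 in the E2F1 groups, and 0.67 (LY294002) and 1.82 (serum) in the control virus groups. For Ccne1 it was 0.13 to 0.35 in the E2F1 groups and 0.17 to 0.50 in the control virus groups. The fit uses 1 estimate of spread per probe set, so the dim control virus arrays enter the error of Ccne2 in every comparison.

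In each single medium both genes passed as well. With LY294002 the change was 3.77 ± 0.29 for Ccne1 (adjusted p = 0.00318) and 6.08 ± 0.71 for Ccne2 (adjusted p = 0.00839), on 2 arrays against 2, where 3.78% of all probe sets passed as higher. Both calls held without any single array. The Ccne2 call was lost with array weights (adjusted p = 0.0678), and both were lost in a fit of these 4 arrays alone (adjusted p = 0.0829 for Ccne1, and 0.05 after rounding, on the failing side, for Ccne2). Without the second arrays of both LY294002 groups the values were 3.16 for Ccne1 (adjusted p = 0.0722) and 6.51 for Ccne2 (adjusted p = 0.0805). The second E2F1 array of this pair is the one with the 3′ to 5′ difference of 0.90. When the fit also took this difference as a covariate, the changes were 3.60 ± 0.35 (adjusted p = 0.0292) and 5.96 ± 0.92 (adjusted p = 0.041).

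In deprivation medium, on 2 arrays against 1, the change was 3.05 ± 0.36 for Ccne1 (adjusted p = 0.0198) and 5.29 ± 0.87 for Ccne2 (adjusted p = 0.0297). Here 2.19% of all probe sets passed as higher, and the median change of all probe sets was -0.14. The lone control array is taken to have the spread of the remaining groups. The Ccne1 call was lost without the first (2.96, adjusted p = 0.14) or second deprived E2F1 array (3.14, adjusted p = 0.103). The Ccne2 call was lost without the same arrays (5.18, adjusted p = 0.155, and 5.40, adjusted p = 0.122) and without either E2F1 array in serum (5.29, adjusted p = 0.0603 for each). It was also lost with an offset of 1 (5.73, adjusted p = 0.135) and with the replicate number as a block (4.94, adjusted p = 0.0512), and both calls were lost in a fit of these 3 arrays alone (adjusted p = 0.0566 for each).

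In serum both calls lay close to the threshold. Ccne1 changed by 2.50 ± 0.29 (5.65-fold, adjusted p = 0.0402) and Ccne2 by 4.97 ± 0.71 (adjusted p = 0.0457), where 0.29% of all probe sets passed as higher. Both were lost with an offset of 1 (2.56 and 6.25), with the replicate number as a block (adjusted p = 0.0698 for each) and in a fit of these 4 arrays alone (adjusted p = 0.135 and 0.137). The Ccne2 call was also lost when the fit took the 3′ to 5′ difference into account (adjusted p = 0.0589). The Ccne1 call was kept without the deprived control virus array, and lost without any other single array (2.29 to 2.71, highest adjusted p = 0.267). The Ccne2 call was kept without the deprived control virus array or the second control virus array in serum, and lost without any other single array. Its value was 3.68 when the first serum array of control virus cells was left out, whose signal of 2.58 is the lowest of the gene, and 6.26 when the second was left out, whose signal of 95.02 is the highest among control virus arrays.

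**Figure D3:**
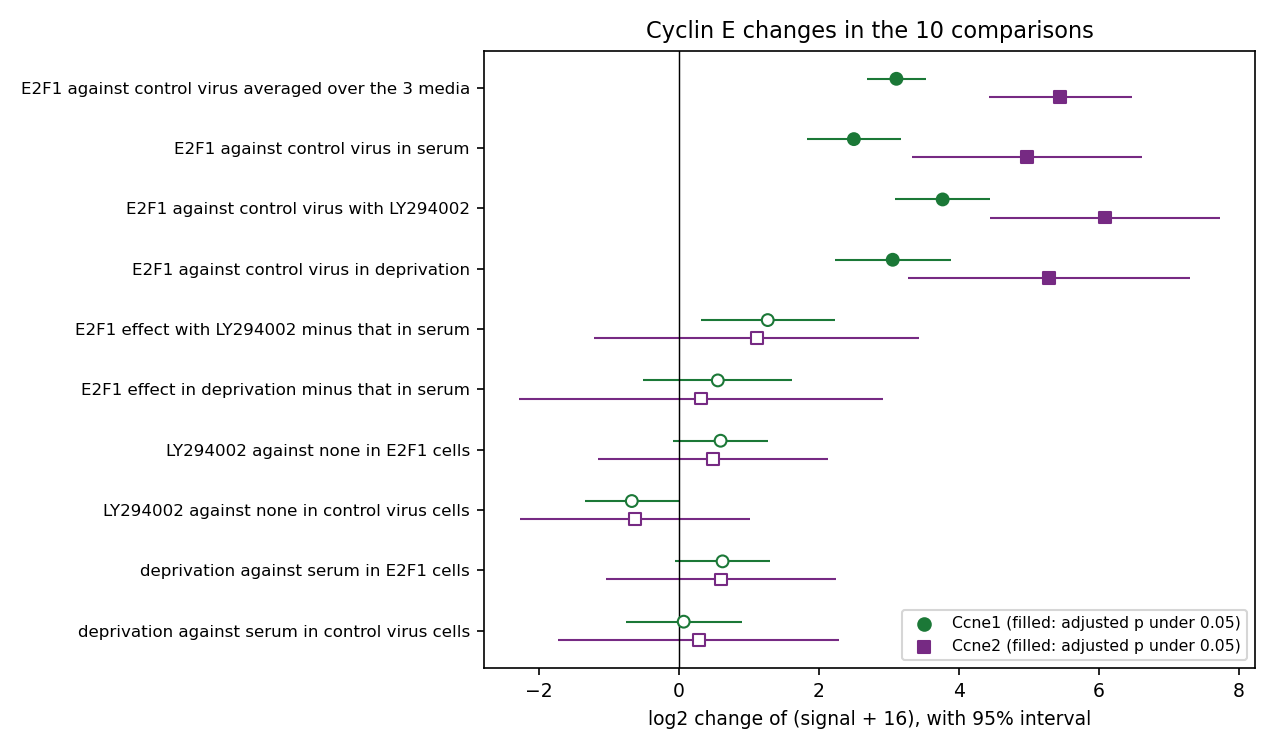
Change of Ccne1 (green circles) and Ccne2 (purple squares) in the 10 comparisons on the log2(signal + 16) scale, with 95% intervals from the limma fit. Filled symbols passed the threshold, and these are the 4 comparisons of E2F1 with control virus for both genes. The intervals of Ccne2 are wider in every comparison.

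On the log2(signal + 16) scale the order of the 6 group means was the same for both genes. The order was read from these means and was not tested, and 0.649% of all probe sets have it. From high to low it ran E2F1 in deprivation, E2F1 with LY294002, E2F1 in serum, control virus in deprivation, control virus in serum and control virus with LY294002. The log2 means of Ccne1 were 11.45, 11.42, 10.83, 8.40, 8.33 and 7.65, and those of Ccne2 were 11.07, 10.96, 10.48, 5.79, 5.51 and 4.88. On the linear scale the order breaks for Ccne2, whose control virus signal was 39.2 in deprivation and averaged 48.8 in serum. The first and second groups overlap in both genes, and the deprived control virus array lies between both serum arrays in both genes. The step between virus groups separates levels that do not overlap.

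Within E2F1 cells, serum gave the lowest signals. Both genes were higher on all 4 E2F1 arrays in deprivation or with LY294002 than on either E2F1 array in serum, as were 9.57% of all probe sets. Mean Ccne1 signals were 2783 in deprivation and 2764 with LY294002, against 1818 in serum. Mean Ccne2 signals were 2146 and 1973, against 1408. None of these differences passed the test. For deprivation against serum Ccne1 changed by 0.62 ± 0.29 (95% interval -0.05 to 1.30, adjusted p = 0.289) and Ccne2 by 0.60 ± 0.71 (-1.04 to 2.24, adjusted p = 0.674), where 0.233% of all probe sets passed. For LY294002 against none Ccne1 changed by 0.59 ± 0.29 (-0.08 to 1.27, adjusted p = 0.477) and Ccne2 by 0.48 ± 0.71 (-1.16 to 2.12, adjusted p = 0.80). In limma 0 of 15866 probe sets passed in this comparison, and 1769 had an unadjusted p under 0.05.

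These comparisons share the E2F1 arrays in serum. In a fit of the 6 E2F1 arrays alone, chosen after the data were seen, the error of Ccne2 fell to 0.17, and the adjusted p was 0.194 for deprivation and 0.453 for LY294002. The 3 E2F1 arrays with the largest 3′ to 5′ differences, both deprived arrays and the second one with LY294002, carry the 3 highest signals of Ccne1. Of Ccne2 they also carry the 3 highest. When the fit took that difference into account, the changes were 0.44 and 0.39 for Ccne1, and 0.47 and 0.33 for Ccne2 (deprivation and LY294002).

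In control virus cells no change with the inhibitor passed the test. Ccne1 was lower on both LY294002 arrays than on both serum arrays, as were 17% of all probe sets, and changed by -0.67 ± 0.29 (95% interval -1.35 to 0.00, adjusted p = 0.743). Ccne2 stood at -0.63 ± 0.71 (-2.27 to 1.01, adjusted p = 0.863), and its LY294002 and serum arrays overlapped. The Ccne2 value turned to 0.66 without the second serum array. Here 0 of 15866 probe sets passed in limma, and 1050 had an unadjusted p under 0.05. In deprivation against serum the values were 0.07 ± 0.36 for Ccne1 (-0.76 to 0.89, adjusted p = 0.955) and 0.28 ± 0.87 for Ccne2 (-1.73 to 2.29, adjusted p = 0.921), on 1 array against 2, where 0.24% of all probe sets passed in either direction. Leaving out the first serum array turned them to -0.05 and -1.01.

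No difference of the E2F1 effect between media passed the test. For LY294002 minus serum it was 1.27 ± 0.41 for Ccne1 (95% interval 0.31 to 2.22, unadjusted p = 0.0155, adjusted p = 0.741) and 1.11 ± 1.00 for Ccne2 (-1.21 to 3.43, adjusted p = 0.897) in the limma fit. When the second serum array of control virus cells was left out, the Ccne2 value turned to -0.18. For deprivation minus serum it was 0.55 ± 0.46 for Ccne1 (-0.51 to 1.62, adjusted p = 0.72) and 0.32 ± 1.12 for Ccne2 (-2.28 to 2.91, adjusted p = 0.948), and the Ccne2 value turned to -0.97 without the same array. In limma 0 of 15866 probe sets passed either test of a difference, while 998 and 1542 had an unadjusted p under 0.05. These intervals allow differences of more than 2-fold for each gene in at least 1 direction.

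The genes around cyclin E-Cdk2 were described by 6 lists with 44 measured genes. Of these, 23 rose, 1 fell and 20 did not pass in the average over media (9.23% of all probe sets rose and 7.25% fell). The median change of the 44 was 0.83, against -0.04 over all probe sets. Cdk2 itself is not analysed here. With LY294002, in deprivation and in serum 22, 10 and 1 of the 44 rose and 0 fell. Of all probe sets 3.78%, 2.19% and 0.29% rose there, and 1.63%, 0.681% and 0.063% fell. The gene that rose in serum was Cdc25b (1.97 ± 0.27, adjusted p = 0.0445), a phosphatase that activates Cdks.

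Of 8 partner kinases and activators 4 rose and 0 fell (median 0.71). Cdk1, the mitotic kinase that can also bind cyclin E in mice, had signals of 1466 to 2301 (median 1836) on E2F1 arrays and 176 to 777 (median 266) on control virus arrays, and changed by 2.62 ± 0.22 (adjusted p = 0.000843). Cdc25b (2.46 ± 0.17) and the Cdk-binding proteins Cks2 (2.39 ± 0.25) and Cks1b (1.07 ± 0.13) rose as well. The Cdk-activating kinase was not called in any of its 3 subunits, with Cdk7 at -0.27, Ccnh at -0.05 and Mnat1 at 0.02. Cdc25a, which activates Cdk2 at the G1/S boundary, stood at 0.35 ± 0.10 (adjusted p = 0.0596).

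The other cyclins moved both ways. Of 5 measured 2 rose and 1 fell (median -0.31). The mitotic cyclins Ccnb2 (2.70 ± 0.44) and Ccnb1 (2.31 ± 0.36) rose. Ccnd2, a G1 cyclin that partners Cdk4 and Cdk6, fell by 0.37 ± 0.11 in the average (adjusted p = 0.0478). Its change was 0.07 in serum, -0.26 with LY294002 and -0.93 in deprivation, where there is 1 control virus array. It was not called in any single medium. Its signals overlapped, with 170 to 442 on E2F1 arrays and 187 to 800 on control virus arrays. The related Ccnd1 (-0.43, adjusted p = 0.245) and Ccnd3 (-0.31, adjusted p = 0.0903) did not pass. Ccnd2 was also the 1 gene of the 44 called between media, higher in deprived than in serum control virus cells (1.90 ± 0.21, adjusted p = 0.0237), on 1 array against 2.

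Among 8 G1 kinases and Cdk inhibitors, 4 inhibitors rose and 0 genes fell (median 0.55). Cdkn1a and Cdkn1b encode p21 and p27, which bind and block cyclin E-Cdk2, and rose by 0.88 ± 0.14 and 1.25 ± 0.27. Cdkn1a had signals of 8193 to 11350 (median 9326) on E2F1 arrays and 3518 to 6226 (median 5471) on control virus arrays, which do not overlap. Cdkn1b had 1552 to 7875 (median 2874) and 864 to 1835 (median 1124), which do. Cdkn2c, an inhibitor of Cdk4 and Cdk6 (2.13 ± 0.19), and Cdkn2a, the locus of p16 and Arf (1.63 ± 0.30), rose too. Cdkn2a was not called in any single medium (0.77 in serum, 1.61 with LY294002 and 2.50 in deprivation). Cdkn1a and Cdkn1b were called with LY294002 only. The changes of Cdkn1b were 2.28 there, 0.68 in serum and 0.80 in deprivation. Cdkn2c was called with LY294002 and in deprivation. The inhibitors did not all rise, with Cdkn2b at -0.86 ± 0.41 (adjusted p = 0.197) and Cdkn1c at 0.22, neither of them called. Cdk4 (-0.17) and Cdk6 (-0.03) did not pass.

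Of 7 pocket protein and E2F family genes 5 rose and 0 fell (median 0.90). The repressor E2f8 rose most by value (2.38 ± 0.33), with signals of 201 to 451 on E2F1 arrays and 18.2 to 85.8 on control virus arrays, the lowest of which lies close to the offset. The dimerisation partner Tfdp1 (1.35 ± 0.12), E2f5 (0.99 ± 0.12), Rb1 (0.90 ± 0.11) and E2f6 (0.83 ± 0.13) rose. The pocket protein gene Rbl2 stood at -0.58 (adjusted p = 0.104).

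Of 11 listed symbols for the removal of cyclin E (with a further name of a listed gene among them) 8 were measured, and Fbxw7 and Skp2 were not among these. Of the 8, 0 passed in either direction in limma (median 0.12), and 2 had an unadjusted p under 0.05. They are Cul1, the scaffold of SCF ubiquitin ligases (0.33 ± 0.11, adjusted p = 0.0788), and its adaptor Skp1 (-0.25 ± 0.10, adjusted p = 0.122). Cul3, the scaffold of another ligase for cyclin E, stood at 0.14. Of 20 symbols on the list of S phase factors (some of them further names of a listed gene) 8 were measured, and all 8 rose (median 1.75). They are the helicase subunits Mcm2 to Mcm7, with Pcna and Ccp110. The helicase subunit Mcm6 had signals of 1120 to 1466 (median 1218) on E2F1 arrays and 125 to 554 (median 188) on control virus arrays, and changed by 2.55 ± 0.27. Mcm4 (2.20 ± 0.16), Mcm5 (1.88 ± 0.19) and the polymerase clamp Pcna (1.84 ± 0.20) are further examples. By value none of the 44 genes changed as much as either cyclin E gene in this average, a comparison of changes across probe sets that was not tested.

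**Figure D4:**
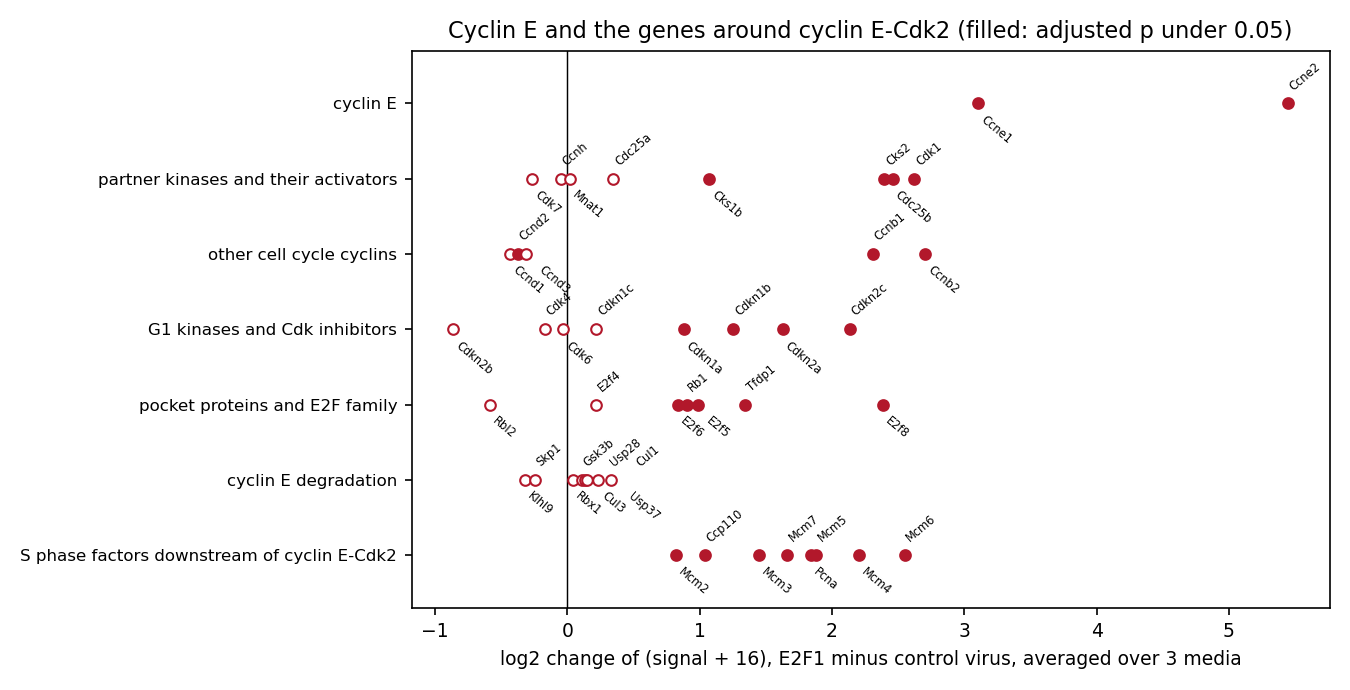
Average change with E2F1 on the log2(signal + 16) scale for Ccne1, Ccne2 and 44 genes in 6 lists around cyclin E-Cdk2. Filled points passed the threshold, and names are set beside the points. The cyclin E genes at 3.11 and 5.45 lie right of all 44, and the 8 genes of cyclin E degradation are open points between -0.32 and 0.33.

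Profiles most like each cyclin E gene were ranked by the root mean square difference of log2(signal + 16) over the 11 arrays, each profile centred on its own mean. For Ccne1 the nearest was Dpf1, a chromatin remodelling subunit (difference 0.26), with signals of 184 to 351 on E2F1 arrays and 9.99 to 22.5 on control virus arrays. These control virus signals lie near the offset of 16, so the likeness of Dpf1 depends on it. The ranking was made with this offset only. Next were Ube2t, which helps to ubiquitinate Fanconi proteins (0.32), Ggh, a folate hydrolase (0.34), Tcf19 (0.35), and Atad2, a bromodomain protein (0.36). The median over all other single-symbol probe sets was 1.67.

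For Ccne2 the nearest were Chaf1a and Asf1b, which place histones on new DNA (1.03 and 1.13), the kinesin Kif18b (1.15), Cdca5l1 (1.16) and the proliferation antigen Mki67 (1.17), against a median of 2.87. Ccne1 ranked 9 for Ccne2 and Ccne2 ranked 979 for Ccne1, with 1.34 between them. The measure follows size as well as shape. All 5 genes nearest to Ccne2 had their highest control virus value on the second serum array, as Ccne2 did. They were picked for likeness on these same arrays, so this is no separate result. It is not particular to Ccne2, since Ccne1 and its nearest genes other than Dpf1 also had their highest control virus value there. The share of all probe sets with this trait was not counted.

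**Figure D5:**
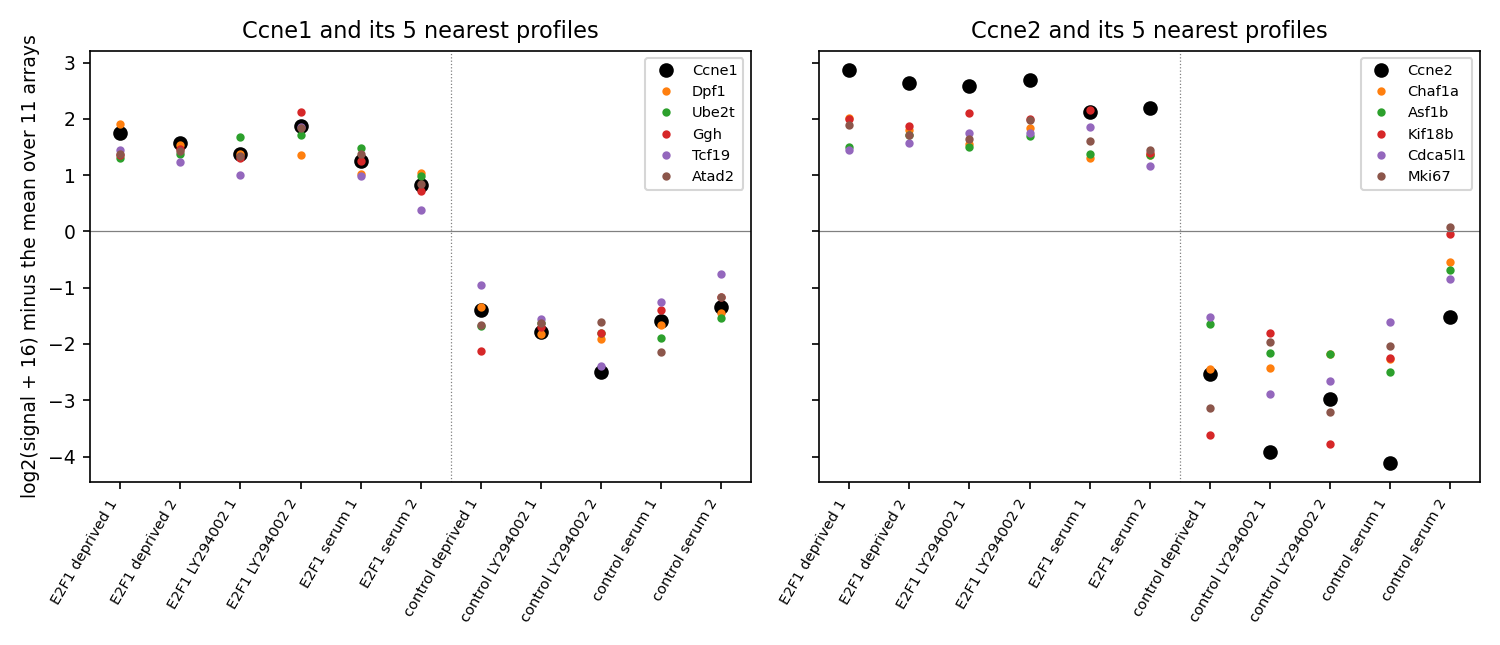
Centred log2(signal + 16) of Ccne1 (left) and Ccne2 (right), large black points, and of the 5 nearest genes, small coloured points, on each of the 11 arrays. The dotted line parts E2F1 arrays (left) from control virus arrays (right). The genes near Ccne1 lie within 0.26 to 0.36 of it, while those near Ccne2 differ by 1.03 to 1.17.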

How the data were processed

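The authors deposited linear array intensities, with a single value for each probe set on each array. MAS5 and RMA are named, per the submitters' processing notes, without a role or a version. Per the labels' protocols, 6 µg of total RNA per array was labelled with biotin. The trimmed mean of 500 on every array was read from the values.

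Of 15923 probe sets 57 controls were left out. Of the rest 12783 have 1 gene symbol, 312 several and 2771 none, and only the first were named. Genes with several probe sets are given by the brightest. Intensities were analysed as log2(signal + 16) with limma 3.58.1 in R 4.3.3 (1 mean per group, 11 arrays, 5 residual degrees of freedom). Benjamini-Hochberg adjustment ran over all probe sets of each of 10 comparisons. The steps were also run on simulated data with independent noise of equal spread on all arrays of a probe set. Unequal spread between arrays, as in Ccne2, was not simulated. The members, lists and tests were chosen with earlier results of these data known. Named genes are Ccne1, Ccne2, up to 4 called genes per list and direction (or the 2 with the smallest p) and the 5 nearest profiles. Others of the lists were named after their values were seen. Replicate numbers were checked for pairing, and replicate differences of 1 of 10 pairs of groups correlated above 0.1 (-0.02 to 0.30). That 1 pair is E2F1 with LY294002 and control virus with LY294002 (0.30), the groups compared in that medium. Replicates were not treated as pairs in the main fit, and a replicate block was fitted as an alternative. Alternatives covered scaling, the offset, a filter on dim probe sets, the error model, the 3' to 5' excess and left-out arrays.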

Additional observations from a re-analysis of the deposited data

How the results depend on the processing

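In the average over media both genes kept their call under all 10 alternatives and without each of 10 arrays, from 2.90 to 3.22 for Ccne1 and from 4.32 to 6.43 for Ccne2. The deprived control virus array could not be left out of the average or of comparisons with that group. Calls in single media were lost in several settings, and the cause was not tested.

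With an offset of 1, adjusted p passed 0.05 in serum for Ccne1 (2.56) and Ccne2 (6.25) and in deprivation for Ccne2 (5.73). The Ccne2 difference of the E2F1 effect, deprivation minus serum, turned to -0.51. With array weights the call of Ccne2 with LY294002 (6.08) was lost. With the replicate number as a block the calls in serum (2.50 for Ccne1 and 4.97 for Ccne2) and of Ccne2 in deprivation (4.94) were lost, that Ccne2 difference was -0.03, and no other call changed. With the 3' to 5' excess as a covariate the call of Ccne2 in serum (4.95) was lost, and Ccne1 in deprived against serum control virus cells turned to -0.26. In fits of the compared groups alone, which leave few degrees of freedom, calls were lost in serum (2.50 and 4.97 for Ccne1 and Ccne2), with LY294002 (3.77 and 6.08) and in deprivation (3.05 and 5.29). Without the second arrays of both LY294002 groups they were lost in serum (2.50 and 4.97) and with LY294002 (3.16 and 6.51).

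Leaving out 1 array at a time gave 2.29 to 2.71 for Ccne1 and 3.68 to 6.26 for Ccne2 in serum, and 2.96 to 3.14 and 5.18 to 5.40 in deprivation. Values of Ccne2 that changed sign ranged from -0.18 to 2.40 for the E2F1 effect with LY294002 minus serum, -0.97 to 1.61 for deprivation minus serum, -1.92 to 0.66 for LY294002 in control virus cells and -1.01 to 1.57 for deprivation in control virus cells. Each of these sign changes came from leaving out a control virus array in serum, where Ccne2 had signals of 2.58 and 95.02. Ccne1 ranged from -0.05 to 0.19 in the last comparison.

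Counts of probe sets called, over all alternatives and left-out arrays, ran from 1540 to 3194 in the average (2615 as reported), 0 to 522 in serum (56), 0 to 1311 with LY294002 (858) and 0 to 1223 in deprivation (456). For deprivation against serum they ran from 0 to 1173 in E2F1 cells (37) and 0 to 189 in control virus cells (38), and for LY294002 from 0 to 325 in E2F1 cells (0) and 0 to 10 in control virus cells (0). Both differences of the E2F1 effect had 0 or 1 call (0). The lowest count in the average was without the first deprived E2F1 array. Signals near the offset limit what can be said of Ccne2 in control virus cells.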
